A study of Homo sapiens with 12 samples.

Results

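Axon guidance genes were followed in T47D, an established human breast carcinoma line that carries the progesterone receptor, after exposure to a progestin, a ligand of that receptor. The set held the semaphorins of classes 3 to 7 and their plexin and neuropilin receptors, the Slits and Robo receptors, the ephrins and Eph receptors, and the netrins and UNC5 receptors. The families were picked with earlier results of these data known. Their members were then all genes whose symbol belongs to one of them, 67 of the 20114 symbols in the count table, and no measured value decided which gene was included. Of these, 57 had enough counts to test, 9 had too few, and SLIT2 had no count in any library.

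These families were named for steering growing axons, and epithelial cells use them too, to set adhesion, cell sorting and movement. Secreted class 3 semaphorins bind neuropilins paired with A-type plexins or, in some cases, a plexin directly, while most membrane-bound semaphorins bind plexins alone. Plexins act on small GTPases inside the cell. Ephrins and Eph receptors both sit in the membrane and signal between touching cells: the A-class ligands are held by a lipid anchor, the B-class ligands span the membrane, and the receptors are tyrosine kinases. Slits are secreted ligands of Robo receptors, and netrins act through DCC, neogenin and the UNC5 receptors.

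The cells were serum-starved before treatment. Vehicle, 100 pM or 10 nM progestin was then given for 6 h or 18 h, which gave 6 groups of 2 libraries, numbered 1 and 3, and 12 in all. All groups were the same line under the same starvation, and the sources used here name neither the progestin nor its solvent. Whether the 2 libraries of a group had cultures of their own is not stated, so a p-value reflects the spread of these samples alone, which may be technical. Cells of 1 line were measured in bulk, so fewer cells expressing a gene and less RNA per cell cannot be told apart.

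The libraries held 34204970 to 41373890 counts, of which mitochondrially encoded genes took 6.69% to 10.8%. FKBP5, a progestin-induced co-chaperone, rose at 10 nM at 6 h (log2 fold change 3.52 ± 0.40, edgeR adjusted p = 0.000196). In CPM, a count scaled to a library of standard size, it was higher still at 100 pM. Libraries 1 and 3 at 6 h measured 30.6 and 59.4 CPM in vehicle, 627 and 885 CPM at 100 pM and 420 and 612 CPM at 10 nM. All 9 luminal breast epithelial markers listed, such as KRT8, GATA3, ESR1 and PGR, averaged at least 1 CPM. Their summed level was 7008 to 7038 CPM at 10 nM and 11701 to 11773 CPM in vehicle at 6 h, and 5332 to 5423 CPM at 10 nM and 11141 to 11803 CPM in vehicle at 18 h. PGR, the progesterone receptor gene, made up part of the drop. It measured 2111 and 1786 CPM in vehicle and 589 and 493 CPM at 10 nM at 6 h. The 5 neuronal markers summed to 3.27 to 3.89 CPM at 10 nM and 21.5 to 25.8 CPM in vehicle at 6 h, and to 10.5 to 12.1 CPM at 10 nM and 21.4 to 22.7 CPM in vehicle at 18 h. Only 1 of them averaged 1 CPM or more and STMN2 was at 0. The 5 fibroblast markers, 2 of which averaged 1 CPM or more, overlapped between 10 nM and vehicle at 6 h, and at 18 h summed to 115 to 119.7 CPM in vehicle, 82.02 to 82.6 CPM at 100 pM and 72.2 to 80.6 CPM at 10 nM. Of 4 endothelial markers 3 were in the table and none averaged 1 CPM, and their sum was 0.526 to 0.536 CPM at 10 nM and 0.203 to 0.333 CPM in vehicle at 6 h, and 0.861 to 0.927 CPM at 10 nM and 0.162 to 0.364 CPM in vehicle at 18 h. At 6 h the 5 basal or myoepithelial markers, 4 of them at 1 CPM or more on average, summed to 10.1 to 10.3 CPM at 10 nM and 14.1 to 16.5 CPM in vehicle, and the 5 immune markers, with 1 at that level, to 2.21 to 2.65 CPM at 10 nM and 3.28 to 3.33 CPM in vehicle. At 18 h the ranges of both sums overlapped between 10 nM and vehicle. These shifts in marker sums ran alongside the results below, and their part in them was not tested.

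Levels below are CPM scaled to library size, given for library 1 and then library 3. A single library is named by its dose and number, as in vehicle 1. Fold changes are log2 values ± SE from the edgeR fit to all genes, and a call is an adjusted p under 0.05. Calls said below to be lost refer to this fit, which leaves the replicate number out. Leaving out 1 library also breaks a pair of same-numbered libraries. Adding the replicate number to the fit as a block removed no call. Of the 57 tested members, 46 averaged 1 CPM or more over the 12 libraries. To set genes side by side, CPM was divided by exon length in kilobases. On that scale PLXNB2, a plexin of epithelial cells that binds class 4 semaphorins, had the highest level in vehicle at 6 h, 114 ± 14.6 CPM per kb (SD, n = 2). EFNA1, an ephrin-A ligand, measured 43.7 ± 7.97 CPM per kb there. PLXNB1, the receptor of SEMA4D, measured 41.4 ± 9.23 and EFNA3 34.3 ± 1.29 CPM per kb. The ranges of EFNA1 and PLXNB1 overlapped. At 10 nM for 6 h EFNA3 measured 137 ± 4.25 CPM per kb, against 70.5 ± 8.95 CPM per kb for PLXNB2.

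Several ligands and co-receptors had too few counts to test. All 3 Slits were among them, although ROBO1 and ROBO2, which bind Slits, were detected. NRP2, the neuropilin with high affinity for SEMA3F, also had too few counts, and NRP1 averaged 0.6004 CPM over the 12 libraries. The others were PLXNA4, PLXNC1, ROBO4, UNC5D, EPHA5 and SEMA5A, and the 10 untested members averaged 0 to 0.121 CPM.

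At 10 nM the set moved in both directions. At 6 h 13 members rose and 18 fell of 57 (edgeR), or 54.4%, where edgeR called 42% of all genes tested. At 18 h 12 rose and 18 fell, or 52.6%, against 34.1% of all genes. The median log2 fold change of the members was -0.38 at 6 h and -0.42 at 18 h, beside -0.0199 and -0.00204 over all genes tested. By direction, 22.6% of all genes rose and 19.4% fell at 6 h, and 19% rose and 15.2% fell at 18 h. With the replicate number as a block in the fit 44 members were called at each time, against 62.4% and 56% of all genes. Ligands and receptors both split at 6 h, where 8 of 30 ligands rose and 10 fell, and 5 of 27 receptors rose and 8 fell.

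At 100 pM fewer members were called. EFNA4 rose and EPHB3 and ROBO1 fell at 6 h, 3 of 57 (5.26%) against 3.48% of all genes (2.88% up and 0.606% down). At 18 h 2 members rose and 8 fell (17.5%), against 10.5% of all genes (6.57% up and 3.89% down). With the block, 13 members were called at 6 h and 26 at 18 h, against 12.2% and 34.1% of all genes, and DESeq2 called 8 and 16, against 5.82% and 15.3%. Each of the 3 calls at 6 h was lost when any 1 vehicle or 100 pM library of that time was left out (edgeR adjusted p of 0.0771 to 0.260). Between 0 and 4 members were called at 6 h without 1 library, and 3 to 11 at 18 h. The lowest count at 18 h came without vehicle 1, with 4 calls without 100 pM 3, 5 without 100 pM 1 and 6 without vehicle 3 of that time.

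**Figure D1:**
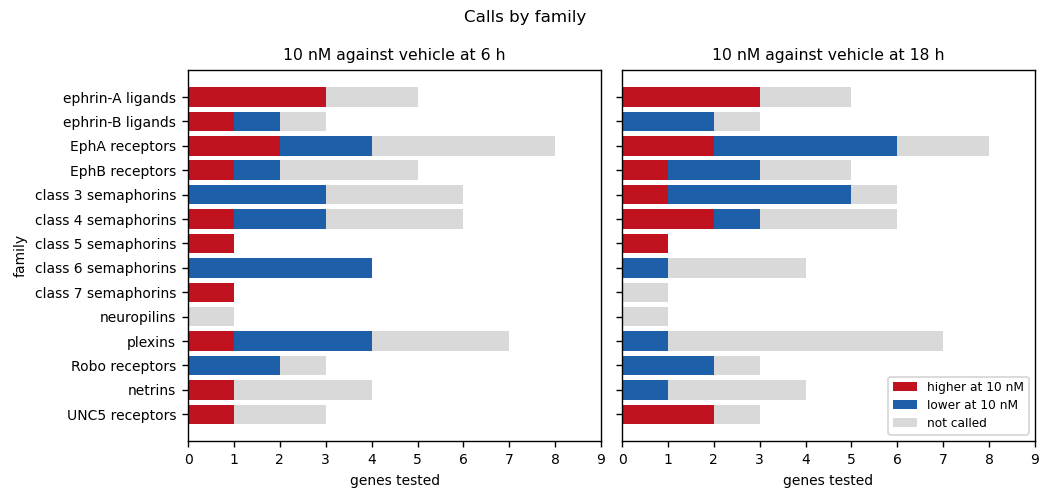
Number of guidance genes called at 10 nM against vehicle in each family, at 6 h (left) and 18 h (right). Red bars are genes called higher, blue bars genes called lower and grey bars genes not called (edgeR, adjusted p under 0.05). The class 6 semaphorins were all lower at 6 h and 1 of 4 was at 18 h, while 3 of 5 ephrin-A ligands were higher at both times.

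**Figure D2:**
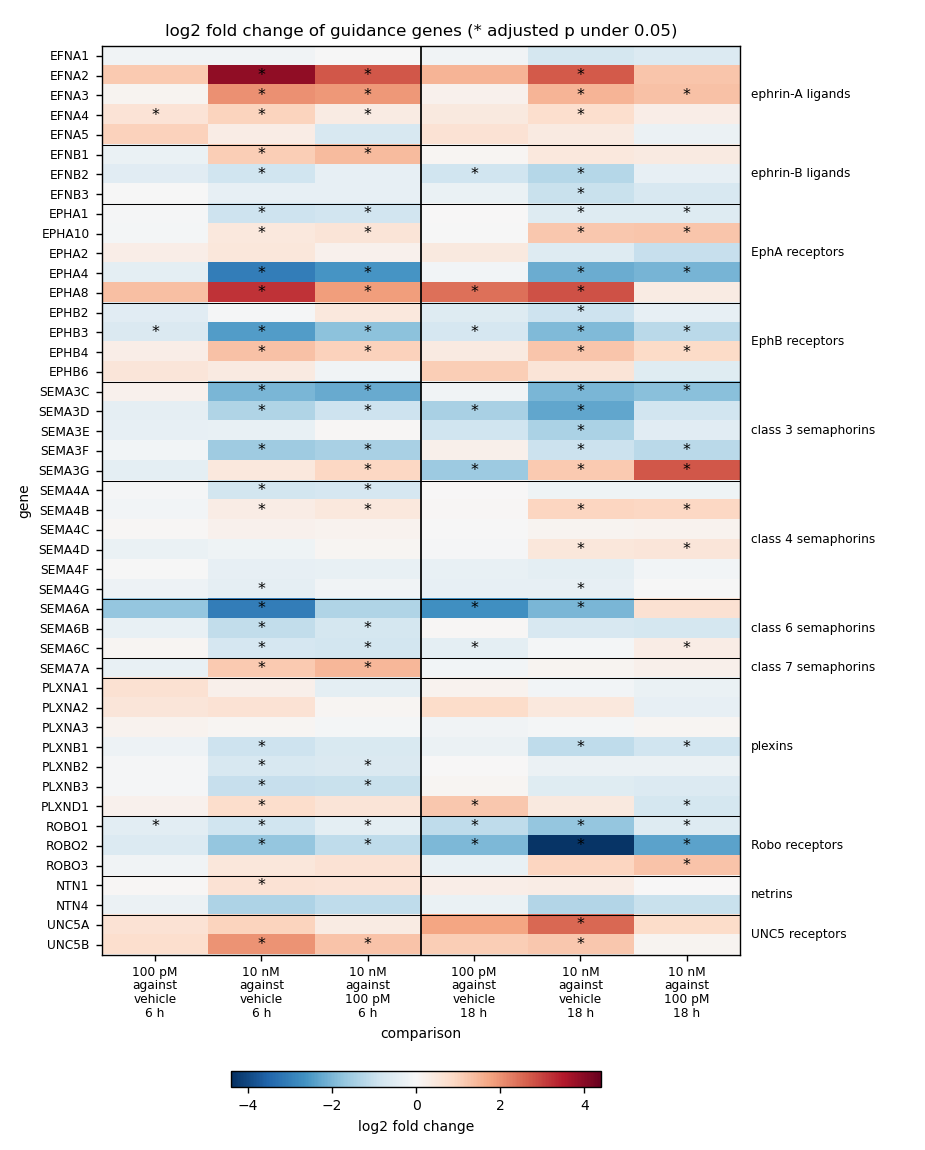
Log2 fold changes of the 46 tested guidance genes that averaged 1 CPM or more, in rows grouped by family, for the 6 dose comparisons in columns. Red is higher and blue lower in the first-named dose, and a star marks an edgeR adjusted p under 0.05. Ephrin-A rows are mostly red and class 3 and class 6 semaphorin rows mostly blue in the 10 nM columns, while the 100 pM columns are paler.

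The start regions of 4 members called at both times at 10 nM are shown as a contrast in base composition, picked after it was seen: EFNA3 and EPHB4, which were higher at 10 nM, and EPHA4 and ROBO2, which were lower. Each covers 250 bases before to 50 after a start of the gene, from RefSeq on GRCh38.p14, written 5′ to 3′ on the gene's strand. Where a symbol had several starts, the first listed was taken, here and in the counts below. Which start these cells use was not measured, so another start could give another composition. Capitals mark GGGCGG, a GC-box core, on either strand (CCGCCC when read on the other strand).
EFNA3, chr1:155078587-155078886, plus strand: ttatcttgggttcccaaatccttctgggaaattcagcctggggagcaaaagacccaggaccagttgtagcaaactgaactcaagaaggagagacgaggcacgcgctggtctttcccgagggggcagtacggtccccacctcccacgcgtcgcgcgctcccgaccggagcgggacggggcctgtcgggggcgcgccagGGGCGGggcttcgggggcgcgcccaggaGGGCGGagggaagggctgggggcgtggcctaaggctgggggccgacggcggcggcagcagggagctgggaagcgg
EPHB4, chr7:100827474-100827773, minus strand: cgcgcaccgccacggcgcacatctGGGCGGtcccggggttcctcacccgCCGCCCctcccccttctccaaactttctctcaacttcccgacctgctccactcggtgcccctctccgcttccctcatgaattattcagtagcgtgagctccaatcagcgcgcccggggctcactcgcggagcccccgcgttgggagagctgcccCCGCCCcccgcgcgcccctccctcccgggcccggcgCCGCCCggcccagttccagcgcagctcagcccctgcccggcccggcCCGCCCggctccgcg
EPHA4, chr2:221574153-221574452, minus strand: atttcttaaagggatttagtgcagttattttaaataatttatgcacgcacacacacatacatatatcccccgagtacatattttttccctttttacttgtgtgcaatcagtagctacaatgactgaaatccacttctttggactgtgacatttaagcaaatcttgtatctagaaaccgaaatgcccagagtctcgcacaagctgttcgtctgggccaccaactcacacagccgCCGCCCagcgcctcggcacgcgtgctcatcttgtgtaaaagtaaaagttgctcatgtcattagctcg
ROBO2, chr3:76310630-76310929, plus strand: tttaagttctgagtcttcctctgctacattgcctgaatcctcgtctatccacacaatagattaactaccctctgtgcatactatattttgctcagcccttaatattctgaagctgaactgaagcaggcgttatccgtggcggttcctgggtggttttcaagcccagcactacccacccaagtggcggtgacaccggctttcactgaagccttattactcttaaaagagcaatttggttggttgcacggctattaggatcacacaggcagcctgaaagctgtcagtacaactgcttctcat
The EFNA3 and EPHB4 windows held several such motifs, the EPHA4 window held 1 and the ROBO2 window none. Other members called at both times ran against this contrast. SEMA3F, which was lower, held 12 at 81.3% GC, and EPHB3, also lower, held 3 at 69% GC. SEMA5B, which was higher, held 0 at 42% GC. Of 57 members whose symbol matched a RefSeq promoter, 45 (78.9%) held GGGCGG on either strand, against 44.6% of 27303 promoters of the same length. Among members called higher at 10 nM at 6 h, 9 of 10 with a promoter held it, and among those called lower 10 of 16 did. GC content had a median of 72.2% in the first and 62.2% in the second, against 66.7% over the 57 members and 58.3% over all promoters. TGTTCT, a core bound by steroid receptors such as the progesterone receptor, stood in 2 of the 57 windows (3.51%) on either strand, against 14.9% of all promoters. A match is only a run of letters, and receptor binding was not measured.

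Among the ephrin-A ligands, 3 of 5 rose at 10 nM at both times, EFNA2, EFNA3 and EFNA4, and none fell. EFNA3 measured 63.7 and 67.2 CPM in vehicle, 76.4 and 65.05 CPM at 100 pM and 268 and 257 CPM at 10 nM at 6 h, and 69.4 and 66.6 CPM in vehicle, 87.9 and 68.9 CPM at 100 pM and 207 and 178 CPM at 10 nM at 18 h. Both 10 nM libraries lay above every other library of their time, and the 100 pM and vehicle libraries overlapped at both times. The log2 fold change at 10 nM against vehicle was 2.003 ± 0.14, edgeR adjusted p = 1.18e-05 at 6 h and 1.5 ± 0.13, edgeR adjusted p = 6.01e-05 at 18 h. EFNA2 measured 0.712 and 0.589 CPM in vehicle, 1.47 and 1.46 CPM at 100 pM and 11.2 and 8.49 CPM at 10 nM at 6 h, and 0.783 and 0.379 CPM in vehicle, 2.28 and 0.957 CPM at 100 pM and 4.59 and 3.03 CPM at 10 nM at 18 h. Its libraries stepped up with dose without overlap at both times, and the 10 nM rise was 3.91 ± 0.47, edgeR adjusted p = 0.000259 at 6 h and 2.71 ± 0.47, edgeR adjusted p = 0.00245 at 18 h. At 100 pM EFNA2 was called only with the replicate block (log2 fold change 1.16, block adjusted p = 0.0274 at 6 h, and 1.48, 0.00381 at 18 h).

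EFNA4 rose by 0.96 at 6 h and 0.74 at 18 h on the log2 scale. EFNA1, the ephrin-A with the highest level per kb in vehicle, was not called by edgeR (log2 fold change at 18 h -0.76, adjusted p = 0.0828), though it was with the block (adjusted p = 5.62e-06). EFNA5 was likewise called only with the block, at 0.31 at 6 h and 0.39 at 18 h (block adjusted p = 0.00151 and 0.000449). EFNA4, EFNA3 and EFNA1 lie in this order on chromosome 1. Sorted by start position, 1 other protein-coding gene comes between the first pair, and it may overlap them. In GENCODE 29, 44.7% of EFNA3 exon bases and 15.0% of EFNA4 exon bases are shared with the same protein-coding locus, AL691442.1, on the same strand. Reads there could have been assigned to that locus or to the ephrin gene. The treatment of such reads by the authors' counter is not stated.

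The ephrin-B ligands, which span the membrane and can signal in reverse, did not move together. EFNB1 measured 4.35 and 3.87 CPM in vehicle, 3.87 and 2.77 CPM at 100 pM and 10.4 and 6.996 CPM at 10 nM at 6 h. Both 10 nM libraries were the highest of that time (log2 fold change 1.08 ± 0.32, edgeR adjusted p = 0.0264), and at 18 h the 10 nM value against vehicle was 0.45 ± 0.33 and not called. EFNB2 measured 9.74 and 7.12 CPM in vehicle, 6.31 and 5.57 CPM at 100 pM and 5.15 and 4.06 CPM at 10 nM at 6 h, and 10.04 and 13.7 CPM in vehicle, 5.97 and 6.84 CPM at 100 pM and 4.65 and 5.37 CPM at 10 nM at 18 h. Its 10 nM libraries were below vehicle at both times, by 0.87 on the log2 scale at 6 h, and at 18 h its log2 fold change was -1.246 ± 0.22, edgeR adjusted p = 0.00285. EFNB3 was called lower at 18 h (log2 fold change -0.98). EFNB1 lost its edgeR call at 6 h without vehicle 1, vehicle 3 or 10 nM 1, with an adjusted p of 0.0767 to 0.165. EFNB2 lost its edgeR call at 6 h without vehicle 1 or 10 nM 3, with an adjusted p of 0.0938 to 0.0949, and EFNB3 lost its edgeR call at 18 h without vehicle 1 or 10 nM 3, with an adjusted p of 0.107 to 0.113. An antisense gene shares 26.2% of the exon bases of EFNB2, and the strand setting of the counts is not given.

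Receptors of both Eph classes moved in opposite directions within a class. Of 8 EphA receptors tested, 2 rose and 2 fell at 6 h, and 2 rose and 4 fell at 18 h. EPHA4 measured 127 and 109.6 CPM in vehicle, 88.8 and 85.4 CPM at 100 pM and 12.5 and 16.2 CPM at 10 nM at 6 h, and 123 and 101 CPM in vehicle, 115 and 89.7 CPM at 100 pM and 23.1 and 26.7 CPM at 10 nM at 18 h. EPHA4, which binds ephrins of both classes, was lowest in the 10 nM libraries at both times with no overlap. Its log2 fold change against vehicle was -3.05 ± 0.18, edgeR adjusted p = 6.95e-06 at 6 h and -2.17 ± 0.18, edgeR adjusted p = 4.04e-05 at 18 h. EPHA1 fell by 0.90 and 0.57 on the log2 scale at 6 h and 18 h.

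EPHA10 measured 8.06 and 10.4 CPM in vehicle, 8.54 and 8.91 CPM at 100 pM and 13.04 and 12.6 CPM at 10 nM at 6 h, and 7.63 and 7.77 CPM in vehicle, 8.41 and 6.73 CPM at 100 pM and 17.9 and 16.99 CPM at 10 nM at 18 h. EPHA10, a receptor without kinase activity, was highest at 10 nM, and its log2 fold change was 0.48 at 6 h and 1.18 ± 0.15, edgeR adjusted p = 0.000478 at 18 h. EPHA10 lost its edgeR call at 6 h without vehicle 1, 10 nM 1 or 10 nM 3 and in the fit to that time alone, with an adjusted p of 0.0648 to 0.198. EPHA8 measured 0.280 and 0.615 CPM in vehicle, 1.08 and 1.20 CPM at 100 pM and 3.10 and 4.96 CPM at 10 nM at 6 h, and 0.140 and 0.379 CPM in vehicle, 1.30 and 1.55 CPM at 100 pM and 1.38 and 2.303 CPM at 10 nM at 18 h. The treated libraries of EPHA8 lay above vehicle at 18 h at both doses, and the 10 nM rise was 3.16 ± 0.50, edgeR adjusted p = 0.00108 at 6 h and 2.805 ± 0.54, edgeR adjusted p = 0.00395 at 18 h. At 100 pM it was 2.43 ± 0.54, edgeR adjusted p = 0.0236 at 18 h. For 100 pM, EPHA8 lost its edgeR call at 18 h without vehicle 1, 100 pM 1 or 100 pM 3 and in the fit to that time alone, with an adjusted p of 0.0611 to 0.148.

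EPHA2, a receptor often studied in breast epithelium, was called by edgeR in neither 10 nM comparison with vehicle (0.49 ± 0.59 at 6 h, -0.57 ± 0.598 at 18 h), and with the block it was called higher at 6 h (adjusted p = 0.0274) and lower at 18 h (adjusted p = 0.0262). The 6 h value changed sign without vehicle 3 or 10 nM 1. EPHA3 was called lower at 10 nM at 18 h, with no count there and 2 and 10 counts in vehicle. The vehicle mean was 1.92-fold a floor of 3 counts per library, but vehicle 1 lay below that floor. EPHA3 lost its edgeR call at 18 h without vehicle 3, 10 nM 1 or 10 nM 3 and in the fit to that time alone, with an adjusted p of 0.125 to 0.227. EPHA6 was called lower at 18 h at -1.29. EPHA6 lost its edgeR call at 18 h without vehicle 1, vehicle 3 or 10 nM 1 and in the fit to that time alone, with an adjusted p of 0.0613 to 0.111.

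EPHB3 fell and EPHB4 rose at 10 nM at both times. EPHB3 measured 99.9 and 87.5 CPM in vehicle, 60.7 and 60.3 CPM at 100 pM and 16.03 and 18.3 CPM at 10 nM at 6 h, and 89.96 and 75.3 CPM in vehicle, 51.5 and 47.1 CPM at 100 pM and 19.5 and 23.8 CPM at 10 nM at 18 h. Its libraries stepped down with dose without overlap at both times. The fall at 10 nM was -2.45 ± 0.14, edgeR adjusted p = 4.94e-06 at 6 h and -1.93 ± 0.14, edgeR adjusted p = 1.83e-05 at 18 h. EPHB4 measured 90.5 and 76.3 CPM in vehicle, 109 and 95.2 CPM at 100 pM and 194 and 216 CPM at 10 nM at 6 h, and 94.3 and 77.5 CPM in vehicle, 127 and 99.8 CPM at 100 pM and 202 and 199 CPM at 10 nM at 18 h. EPHB4, the receptor of ephrin-B2, was highest in the 10 nM libraries at both times with no overlap, with a log2 fold change of 1.30 ± 0.15, edgeR adjusted p = 0.000210 at 6 h and 1.22 ± 0.15, edgeR adjusted p = 0.000363 at 18 h. Per kb, EPHB4 measured 31.9 ± 2.48 CPM and EPHB3 3.78 ± 0.347 CPM at 10 nM at 6 h, against 12.96 ± 1.56 CPM for EPHB4 and 20.7 ± 1.93 CPM for EPHB3 in vehicle (SD, n = 2). EPHB2 was called lower at 18 h only (-0.90), and the difference of its 10 nM effects between times was -0.84 ± 0.39 (edgeR adjusted p = 0.208, with the block 0.0499). EPHB2 lost its edgeR call at 18 h without vehicle 1, vehicle 3, 10 nM 1 or 10 nM 3, with an adjusted p of 0.0563 to 0.172. EPHB1 and EPHB6 were not called by edgeR, and EPHB6 was called with the block at 0.41 (6 h) and 0.58 (18 h), with adjusted p of 0.0240 and 0.00582.

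**Figure D3:**
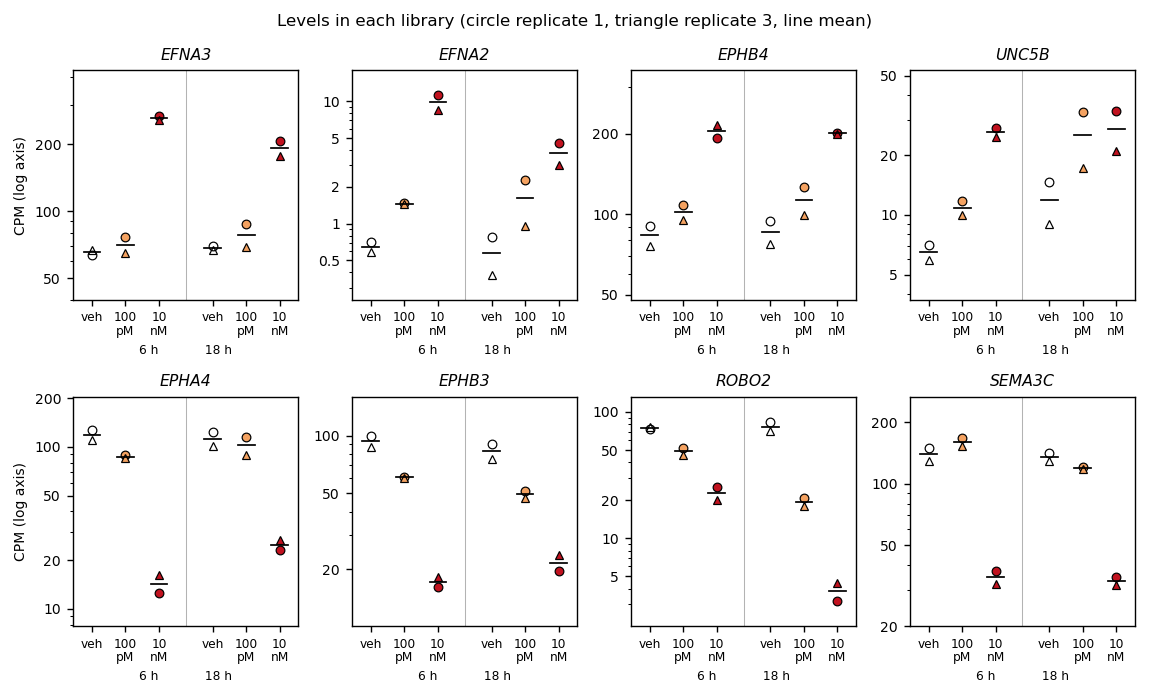
Levels (CPM, log axis) of 8 guidance genes in each library, by dose within 6 h (left of each panel) and 18 h (right). Open symbols are vehicle, orange 100 pM and red 10 nM, circles are replicate 1, triangles replicate 3 and lines the mean of 2. EFNA3, EFNA2, EPHB4 and UNC5B are highest and EPHA4, EPHB3, ROBO2 and SEMA3C lowest at 10 nM at 6 h.

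ROBO1 and ROBO2 fell, and their falls were larger at 18 h. ROBO2 measured 82.6 and 70.4 CPM in vehicle, 20.8 and 18.1 CPM at 100 pM and 3.21 and 4.44 CPM at 10 nM at 18 h, and 73.7 and 75.8 CPM in vehicle, 52.1 and 45.6 CPM at 100 pM and 25.5 and 19.97 CPM at 10 nM at 6 h. The groups were ordered by dose with no overlap at either time. At 10 nM the log2 fold change was -4.32 ± 0.20, edgeR adjusted p = 4.77e-06 at 18 h and -1.72 ± 0.17, edgeR adjusted p = 9.39e-05 at 6 h, and at 100 pM it was -1.97 ± 0.17, edgeR adjusted p = 0.000318 at 18 h. ROBO1 measured 130.0 and 109 CPM in vehicle, 55.6 and 53.6 CPM at 100 pM and 37.4 and 36.9 CPM at 10 nM at 18 h, and 122 and 114 CPM in vehicle, 88.99 and 82.9 CPM at 100 pM and 68.1 and 60.6 CPM at 10 nM at 6 h. ROBO1 was also ordered by dose without overlap. Its 10 nM log2 fold change was -1.69 ± 0.10, edgeR adjusted p = 9.40e-06 at 18 h and -0.87 at 6 h, and the 100 pM one at 18 h was -1.13 ± 0.10, edgeR adjusted p = 0.000324. The difference of the 10 nM effects, 18 h minus 6 h, was -2.60 ± 0.25, edgeR adjusted p = 0.00187 for ROBO2 and -0.81 ± 0.14, edgeR adjusted p = 0.0110 for ROBO1. The call on the difference between times was lost for ROBO1 without vehicle 3 at 6 h, with an edgeR adjusted p of 0.0508. The genes are neighbours on chromosome 3 with no protein-coding gene between them.

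ROBO3, a divergent family member known for letting commissural axons cross the midline, measured 1.54 and 1.62 CPM in vehicle, 1.22 and 1.32 CPM at 100 pM and 2.75 and 3.31 CPM at 10 nM at 18 h. The 10 nM libraries lay above the 100 pM libraries (1.253 ± 0.38, edgeR adjusted p = 0.0381). ROBO3 lost its edgeR call at 18 h without 100 pM 1, 100 pM 3, 10 nM 1 or 10 nM 3, with an adjusted p of 0.0833 to 0.144. Against vehicle its value of 0.94 ± 0.37 was called only with the block (adjusted p = 0.00576).

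Among the secreted class 3 semaphorins, 3 of 6 fell at 6 h and none rose, and 4 fell and 1 rose at 18 h. SEMA3C measured 149 and 129.6 CPM in vehicle, 167 and 153 CPM at 100 pM and 37.4 and 32.2 CPM at 10 nM at 6 h, and 141 and 129 CPM in vehicle, 121 and 119 CPM at 100 pM and 35.01 and 31.97 CPM at 10 nM at 18 h. SEMA3C had the highest level per kb of the class in vehicle and was lowest at 10 nM without overlap. Its log2 fold change was -2.003 ± 0.11, edgeR adjusted p = 4.73e-06 at 6 h and -2.01 ± 0.11, edgeR adjusted p = 6.39e-06 at 18 h. SEMA3F measured 81.5 and 97.4 CPM in vehicle, 77.6 and 85.4 CPM at 100 pM and 31.6 and 28.5 CPM at 10 nM at 6 h, and 76.5 and 90.5 CPM in vehicle, 94.7 and 100.4 CPM at 100 pM and 32.3 and 53.8 CPM at 10 nM at 18 h. SEMA3F, a chemorepellent that binds NRP2, was also lowest at 10 nM, at -1.57 ± 0.21, edgeR adjusted p = 0.000522 at 6 h and -0.96 at 18 h. SEMA3F lost its edgeR call at 18 h without vehicle 3, with an adjusted p of 0.0518.

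SEMA3D measured 2.42 and 2.15 CPM in vehicle, 1.74 and 1.71 CPM at 100 pM and 0.803 and 1.02 CPM at 10 nM at 6 h, and 2.57 and 1.71 CPM in vehicle, 0.961 and 0.619 CPM at 100 pM and 0.430 and 0.449 CPM at 10 nM at 18 h. SEMA3D lay below vehicle at 10 nM at both times and at 100 pM at 18 h. The log2 fold change was -1.33 ± 0.30, edgeR adjusted p = 0.00698 at 6 h and -2.27 ± 0.32, edgeR adjusted p = 0.000783 at 18 h for 10 nM, and -1.43 ± 0.30, edgeR adjusted p = 0.0196 at 18 h for 100 pM. SEMA3D lost its edgeR call at 6 h without 10 nM 1, with an adjusted p of 0.0549. For 100 pM, SEMA3D lost its edgeR call at 18 h without vehicle 1 or 100 pM 3 and in the fit to that time alone, with an adjusted p of 0.101 to 0.137. SEMA3E, a ligand that binds PLXND1 without a neuropilin, measured 3.41 and 4.01 CPM in vehicle, 2.05 and 1.97 CPM at 100 pM and 1.75 and 1.07 CPM at 10 nM at 18 h. Its 10 nM libraries were below both vehicle libraries (-1.40 ± 0.26, edgeR adjusted p = 0.00348). SEMA3A, the founding chemorepellent of the class, was not called at either time (-0.66 ± 0.51 at 6 h, -0.21 ± 0.47 at 18 h). SEMA3E, SEMA3A and SEMA3D adjoin on chromosome 7.

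All 4 class 6 semaphorins, which span the membrane, fell at 10 nM at 6 h, while class 4 members moved both ways. At 18 h only SEMA6A of class 6 was called lower at 10 nM. SEMA6A measured 13.8 and 26.8 CPM in vehicle, 4.09 and 8.28 CPM at 100 pM and 1.63 and 3.27 CPM at 10 nM at 6 h, and 13.5 and 23.04 CPM in vehicle, 2.05 and 3.57 CPM at 100 pM and 3.79 and 5.25 CPM at 10 nM at 18 h. SEMA6A, a ligand of A-type plexins, was below vehicle in both treated groups at 18 h. Its log2 fold change was -3.05 ± 0.54, edgeR adjusted p = 0.00221 at 6 h and -2.01 ± 0.52, edgeR adjusted p = 0.0163 at 18 h for 10 nM, and -2.70 ± 0.53, edgeR adjusted p = 0.0156 at 18 h for 100 pM. With the block the edgeR adjusted p at 18 h was 1.48e-07 for 10 nM and 1.09e-07 for 100 pM. SEMA6B measured 9.79 and 9.35 CPM in vehicle, 8.71 and 6.42 CPM at 100 pM and 5.09 and 3.86 CPM at 10 nM at 6 h, with the 10 nM libraries lowest (-1.09 ± 0.26, edgeR adjusted p = 0.00871). SEMA6C fell too (-0.72). SEMA6D had 2 counts over both 10 nM libraries and 58 over both vehicle libraries at 6 h, a ratio of 0.0377 scaled to library size, with an exact 95% interval of 0.00447 to 0.143 that covers counting error only. SEMA6A lost its edgeR call at 18 h without vehicle 3, 10 nM 1 or 10 nM 3, with an adjusted p of 0.0526 to 0.0963. SEMA6B lost its edgeR call at 6 h without 10 nM 3, with an adjusted p of 0.0604, and SEMA6D lost its edgeR call at 6 h without vehicle 3, 10 nM 1 or 10 nM 3, with an adjusted p of 0.0521 to 0.110. For SEMA6A at 100 pM, the call at 18 h was lost without vehicle 3, 100 pM 1 or 100 pM 3 (edgeR adjusted p of 0.0519 to 0.0924).

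SEMA7A, a lipid-anchored semaphorin that signals through integrins and PLXNC1, measured 3.76 and 2.51 CPM in vehicle, 2.99 and 2.03 CPM at 100 pM and 6.45 and 7.45 CPM at 10 nM at 6 h. The 10 nM libraries were above vehicle (1.15 ± 0.28, edgeR adjusted p = 0.0108), and at 18 h the value was 0.12 ± 0.29 and not called. SEMA7A lost its edgeR call at 6 h without vehicle 3 or 10 nM 3, with an adjusted p of 0.0532 to 0.0816. SEMA5B had no count in vehicle at either time and was at least 2.01-fold higher at 10 nM at 6 h and at least 4.29-fold higher at 18 h, at a floor of 3 counts per library. Of 6 class 4 members, SEMA4B rose at 6 h (0.33) and at 18 h (0.96), and SEMA4D, the ligand of PLXNB1, was called higher at 18 h (0.49). SEMA4A fell at 6 h (-0.80) and SEMA4G at both times (-0.40 and -0.38). SEMA4B lost its edgeR call at 6 h without vehicle 1, vehicle 3, 10 nM 1 or 10 nM 3, with an adjusted p of 0.0688 to 0.107. SEMA4A lost its edgeR call at 6 h without vehicle 3, 10 nM 1 or 10 nM 3, with an adjusted p of 0.0515 to 0.165. SEMA4G lost its edgeR call at 6 h without vehicle 3, 10 nM 1 or 10 nM 3, with an adjusted p of 0.0644 to 0.137, and SEMA4G lost its edgeR call at 18 h without vehicle 1, vehicle 3 or 10 nM 3 and in the fit to that time alone, with an adjusted p of 0.0657 to 0.168. SEMA4G shares 22.3% of its exon bases with MRPL43 on the opposite strand.

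Of the plexins, the 3 B-type receptors fell at 10 nM at 6 h, PLXND1 rose and no A-type receptor was called by edgeR. At 18 h PLXNB1 was the only plexin that edgeR called at 10 nM against vehicle. PLXND1, the receptor of SEMA3E, measured 50.4 and 60.5 CPM in vehicle, 54.6 and 71.3 CPM at 100 pM and 85.3 and 103 CPM at 10 nM at 6 h. Its 10 nM libraries were the highest of that time, with a log2 fold change against vehicle of 0.76 ± 0.22, edgeR adjusted p = 0.0240. PLXND1 lost its edgeR call at 6 h without vehicle 1, vehicle 3 or 10 nM 3, with an adjusted p of 0.0505 to 0.134. PLXNB1 measured 339.5 and 467 CPM in vehicle, 286 and 404 CPM at 100 pM and 183 and 251 CPM at 10 nM at 6 h, and 338 and 435 CPM in vehicle, 281 and 373 CPM at 100 pM and 152 and 204 CPM at 10 nM at 18 h. The 10 nM libraries of PLXNB1 lay below vehicle at both times, at -0.89 at 6 h and -1.12 ± 0.27, edgeR adjusted p = 0.0121 at 18 h. With the block the edgeR adjusted p at 18 h was 1.68e-08. PLXNB1 lost its edgeR call at 6 h without vehicle 3 or 10 nM 1, with an adjusted p of 0.155 to 0.157. PLXNB1 lost its edgeR call at 18 h without vehicle 3 or 10 nM 1, with an adjusted p of 0.0727 to 0.0821. PLXNB2 fell by 0.70 on the log2 scale at 6 h. PLXNB3 measured 69.98 and 101 CPM in vehicle, 69.4 and 96.2 CPM at 100 pM and 33.1 and 51.2 CPM at 10 nM at 6 h and fell at 10 nM (-1.02 ± 0.29, edgeR adjusted p = 0.0207, with the block 1.72e-05). PLXNB3 lost its edgeR call at 6 h without vehicle 3 or 10 nM 1, with an adjusted p of 0.132 to 0.136. SRPK3 shares 20.4% of the exon bases of PLXNB3 on the same strand. PLXNA1, PLXNA2 and PLXNA3 had log2 fold changes at 10 nM of 0.24, 0.63 and 0.07 at 6 h, and the first pair were called with the block (adjusted p = 0.0271 and 0.0274). NRP1, the co-receptor of class 3 semaphorins and of VEGF, was lower at 10 nM only with the block (-1.12, adjusted p = 0.0205 at 6 h, and -1.02, 0.0237 at 18 h).

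The UNC5 receptors mediate netrin repulsion. Of 3 tested, UNC5B was called higher at 10 nM at both times and UNC5A at 18 h only. UNC5B measured 7.10 and 5.97 CPM in vehicle, 11.7 and 9.94 CPM at 100 pM and 27.3 and 24.7 CPM at 10 nM at 6 h, and 14.7 and 9.02 CPM in vehicle, 33.1 and 17.2 CPM at 100 pM and 33.3 and 21.04 CPM at 10 nM at 18 h. At 6 h its libraries stepped up with dose, and at 18 h those at 10 nM lay above vehicle. The log2 fold change was 1.99 ± 0.36, edgeR adjusted p = 0.00235 at 6 h and 1.20 ± 0.35, edgeR adjusted p = 0.0281 at 18 h. UNC5B lost its edgeR call at 18 h without vehicle 3 or 10 nM 1 and in the fit to that time alone, with an adjusted p of 0.0839 to 0.162. UNC5A measured 0.419 and 1.44 CPM in vehicle, 2.67 and 3.49 CPM at 100 pM and 6.23 and 4.49 CPM at 10 nM at 18 h, with the 10 nM libraries above vehicle (2.52 ± 0.57, edgeR adjusted p = 0.00910). UNC5C was lower at 10 nM only with the block (-3.75, adjusted p = 0.000139 at 6 h, and -2.59, 0.000989 at 18 h). These values rest on few counts. UNC5C had 12 and 50 counts in vehicle and 2 and 2 at 10 nM at 6 h, and 12 and 39 in vehicle and 1 and 7 at 10 nM at 18 h.

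Among the 4 netrins, NTN1, the founding member, was called higher at 6 h (0.65) and NTN5 lower at 18 h (-1.12). NTN1 lost its edgeR call at 6 h without vehicle 1, vehicle 3 or 10 nM 1, with an adjusted p of 0.104 to 0.188. NTN5 lost its edgeR call at 18 h without vehicle 1, vehicle 3 or 10 nM 1 and in the fit to that time alone, with an adjusted p of 0.0829 to 0.183. NTN4 measured 56.4 and 28.2 CPM in vehicle, 49.1 and 22.4 CPM at 100 pM and 21.9 and 11.2 CPM at 10 nM at 6 h, and 75.7 and 45.5 CPM in vehicle, 69.7 and 28.9 CPM at 100 pM and 33.4 and 16.7 CPM at 10 nM at 18 h. NTN4, a netrin of basement membranes, was higher in library 1 than in library 3 in every group, and its fall at 10 nM (-1.36 ± 0.62 at 6 h, -1.27 ± 0.61 at 18 h) was called only with the block (adjusted p = 5.94e-07 and 6.93e-07).

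Setting the doses against each other, 11 members were higher and 14 lower at 10 nM than at 100 pM at 6 h, against 37% of all genes called (20.1% up, 16.8% down). At 18 h 9 were higher and 10 lower, against 26.2% (14.8% up, 11.4% down). With the block 40 were called at 6 h and 33 at 18 h, against 59.3% and 50.2% of all genes. Leaving out 1 library gave 14 to 26 calls at 6 h, with the low of 14 without 100 pM 3 or 10 nM 1 and 16 without 10 nM 3. The comparisons of the doses with vehicle and with each other share libraries, so their values stand side by side without a test of likeness. Both steps, vehicle to 100 pM and 100 pM to 10 nM, were called in the same direction for 3 members at each time. At 6 h these were EFNA4 upward and EPHB3 and ROBO1 downward, and at 18 h EPHB3, ROBO1 and ROBO2 downward. With the block there were 9 at 6 h, which added EFNA2, EPHA8, PLXNB1, ROBO2, SEMA6A and UNC5B, and 8 at 18 h, which added EFNA2, EFNA4, EPHB4, NTN4 and PLXNB1. The share of all genes called at both steps is not given here. In the fit without the block, the first step of all 3 at 6 h was no longer called once either vehicle library or either 100 pM library was left out. For the second step, EFNA4 lost its edgeR call at 6 h without 100 pM 1, 100 pM 3, 10 nM 1 or 10 nM 3 and in the fit to that time alone, with an adjusted p of 0.0578 to 0.192, and ROBO1 lost its edgeR call at 6 h without 100 pM 1 or 10 nM 3, with an adjusted p of 0.0510 to 0.0706. For the first step at 18 h, EPHB3 lost its edgeR call at 18 h without vehicle 1 or 100 pM 3, with an adjusted p of 0.0646 to 0.0704.

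At 18 h 3 members were called in opposite directions over the 2 steps, and none was at 6 h. SEMA3G measured 0.916 and 0.922 CPM in vehicle, 0.808 and 0.543 CPM at 100 pM and 1.44 and 1.10 CPM at 10 nM at 6 h, and 1.01 and 0.812 CPM in vehicle, 0.260 and 0.338 CPM at 100 pM and 1.89 and 2.13 CPM at 10 nM at 18 h. SEMA3G, a secreted class 3 member, lay below vehicle at 100 pM at 18 h and above it at 10 nM. Its log2 fold change was -1.60 ± 0.33, edgeR adjusted p = 0.0175 for 100 pM against vehicle, 2.74 ± 0.32, edgeR adjusted p = 0.000417 for 10 nM against 100 pM and 1.15 ± 0.29, edgeR adjusted p = 0.0142 for 10 nM against vehicle. PLXND1 measured 60.8 and 50.96 CPM in vehicle, 114 and 139.6 CPM at 100 pM and 59.5 and 89.9 CPM at 10 nM at 18 h. The 100 pM libraries were the highest, at 1.18 ± 0.22, edgeR adjusted p = 0.0128 against vehicle, and 10 nM was lower than 100 pM by 0.76 on the log2 scale (edgeR adjusted p = 0.0344). SEMA6C moved by -0.42 and 0.32 over the same steps. For 100 pM against vehicle, SEMA3G lost its edgeR call at 18 h without vehicle 1, vehicle 3, 100 pM 1 or 100 pM 3 and in the fit to that time alone, with an adjusted p of 0.0510 to 0.112. PLXND1 lost its edgeR call at 18 h without vehicle 1, vehicle 3 or 100 pM 3, with an adjusted p of 0.0551 to 0.0919 for the same comparison, and SEMA6C lost its edgeR call at 18 h without vehicle 1, vehicle 3, 100 pM 1 or 100 pM 3 and in the fit to that time alone, with an adjusted p of 0.0503 to 0.209. For 10 nM against 100 pM, PLXND1 lost its edgeR call at 18 h without 100 pM 3 or 10 nM 1 and in the fit to that time alone, with an adjusted p of 0.0662 to 0.186, and SEMA6C lost its edgeR call at 18 h without 100 pM 1, 100 pM 3, 10 nM 1 or 10 nM 3 and in the fit to that time alone, with an adjusted p of 0.0780 to 0.195. Against vehicle at 10 nM, SEMA3G lost its edgeR call at 18 h without vehicle 3 or 10 nM 3, with an adjusted p of 0.0715 to 0.0944. With the block EFNA5 and PLXNA1 at 6 h and EFNA5, EPHB6 and SEMA6A at 18 h were also called in opposite directions. The share of all genes called in opposite directions over the steps is not given here.

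**Figure D4:**
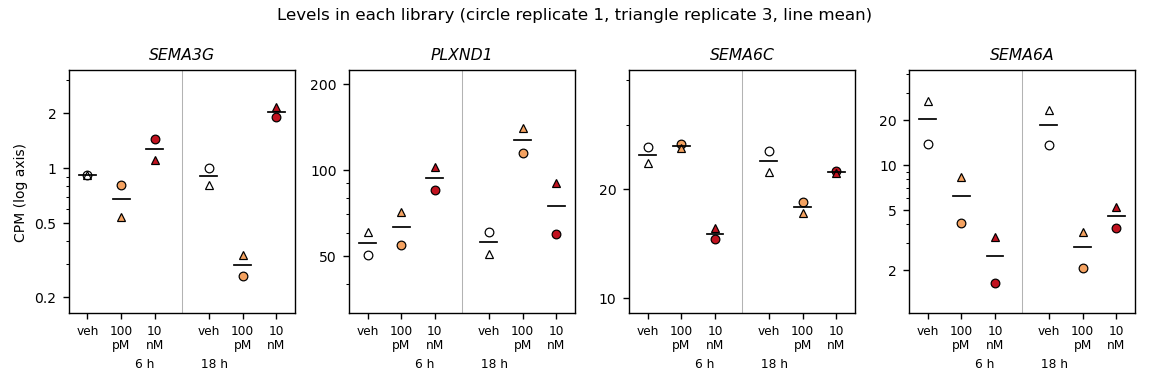
Levels (CPM, log axis) of SEMA3G, PLXND1, SEMA6C and SEMA6A in each library, by dose at 6 h (left of each panel) and 18 h (right). Open symbols are vehicle, orange 100 pM and red 10 nM, circles are replicate 1, triangles replicate 3 and lines the mean of 2. At 18 h SEMA3G and SEMA6C are lowest and PLXND1 highest at 100 pM.

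Between the times, no member was called in vehicle (18 h against 6 h: edgeR 0 calls with 1 at an unadjusted p under 0.05, DESeq2 0, the block 0), where edgeR called 0% of all genes, DESeq2 0% and the block 0.0288%. At 10 nM, 9 members were called higher and 12 lower at both times, none in opposite directions, 9 at 18 h alone and 10 at 6 h alone, and 17 at neither. Being called at 1 time alone does not show that the times differ. The shares of all genes called at both times or at 1 alone are not given here, so these counts cannot be set against them. The difference of the 10 nM effects itself was called for 5 members (8.77%), against 10.5% of all genes, with the block for 23, against 35.1%, and by DESeq2 for 8, against 17.2%. Leaving out 1 library gave 2 to 6 calls, with the low of 2 without vehicle 3 of 6 h and 3 calls without vehicle 1 or 10 nM 1 of 6 h, or vehicle 3 or 10 nM 3 of 18 h. ROBO1 and ROBO2 fell further at 18 h, as above. SEMA4B rose further (0.63 ± 0.14, edgeR adjusted p = 0.0260), SEMA4D was higher at 18 h than at 6 h relative to vehicle (0.68 ± 0.11, edgeR adjusted p = 0.00859), and SEMA6C was -0.10 at 18 h and -0.72 at 6 h against vehicle, a difference of 0.62 ± 0.14, edgeR adjusted p = 0.0295. The call on the difference between times was lost for SEMA4B without vehicle 1, vehicle 3, 10 nM 1 or 10 nM 3 at 6 h or vehicle 3, 10 nM 1 or 10 nM 3 at 18 h, with an edgeR adjusted p of 0.0571 to 0.0900. The call on the difference between times was lost for SEMA6C without vehicle 1, vehicle 3, 10 nM 1 or 10 nM 3 at 6 h or vehicle 1, vehicle 3, 10 nM 1 or 10 nM 3 at 18 h, with an edgeR adjusted p of 0.0506 to 0.0961. The 100 pM effect differed between times for 0 members by edgeR (9 at an unadjusted p under 0.05, 2 by DESeq2, which called 0.844% of all genes), against 0.0144% of all genes, and for 8 with the block, against 5.6%.

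**Figure D5:**
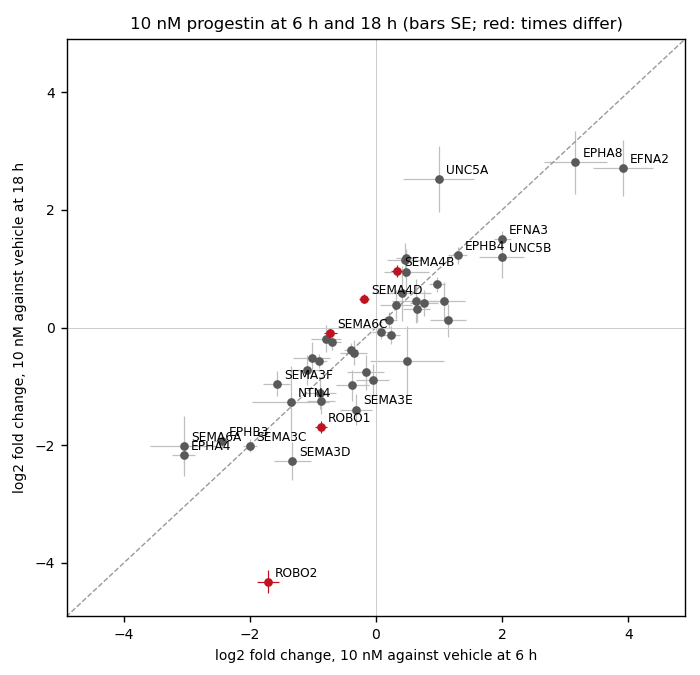
Log2 fold change at 10 nM against vehicle at 18 h (vertical axis) and at 6 h (horizontal axis) for the 46 guidance genes that averaged 1 CPM or more. Bars are SE, the dashed line marks equal values, and red marks the 5 genes whose effect differed between times (edgeR, adjusted p under 0.05). ROBO2 lies furthest below the line, at -4.32 at 18 h and -1.72 at 6 h.

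Co-receptors and effectors that act downstream of these families were taken from 4 lists with 64 genes, of which 56 were tested. At 10 nM 21 rose and 9 fell at 6 h, against 22.6% of all genes called up and 19.4% down, and 23 rose and 13 fell at 18 h, against 19% up and 15.2% down. With the block 27 were higher and 18 lower at 6 h, against 31.6% of all genes up and 30.9% down, and 24 were higher and 23 lower at 18 h, against 28.7% and 27.3%. At 100 pM 2 rose and 1 fell at 6 h, against 2.88% up and 0.606% down, and 4 rose and 2 fell at 18 h, against 6.57% and 3.89%. The median log2 fold change of the 56 at 10 nM was 0.12 at 6 h and -0.02 at 18 h, beside -0.0199 and -0.00204 over all genes. With the block 13 were called at 100 pM at 6 h and 28 at 18 h, against 12.2% and 34.1% of all genes. Without vehicle 3, 100 pM 1 or 100 pM 3 only 1 was called at 100 pM at 6 h, and at 18 h 3 were called without vehicle 1 and 2 without vehicle 3 or 100 pM 1. Of the Eph and ephrin effectors 8 of 17 rose and 4 fell at 6 h, with VAV2, an exchange factor recruited by Eph receptors (1.43 ± 0.06, edgeR adjusted p = 2.25e-06), SHB (1.58 ± 0.09, edgeR adjusted p = 4.73e-06) and CRK (1.71 ± 0.13, edgeR adjusted p = 2.53e-05), both adaptor proteins, among the rises. VAV3, a relative of VAV2, fell (-4.34 ± 0.30, edgeR adjusted p = 1.28e-05), as did the adaptor GRB7 (-2.29 ± 0.18, edgeR adjusted p = 2.70e-05). RND1, a GTPase that binds plexins, was lower at 10 nM at 6 h (-2.76 ± 0.25, edgeR adjusted p = 6.11e-05) and at 18 h (-2.35 ± 0.25, edgeR adjusted p = 0.000159). RRAS, a Ras-family substrate of plexins, fell at 18 h (-1.38 ± 0.09, edgeR adjusted p = 1.67e-05).

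Of the Slit and Robo effectors 7 of 15 rose and 2 fell at 10 nM at 6 h, against 22.6% of all genes up and 19.4% down, and 9 rose and 3 fell at 18 h, against 19% and 15.2%. SRGAP2, a GTPase-activating protein that binds Robo receptors, rose at 100 pM at 6 h (1.94 ± 0.18, edgeR adjusted p = 0.000500) and at 18 h (1.94 ± 0.18, edgeR adjusted p = 0.000433). Its paralog SRGAP3 fell at 18 h at 100 pM (-1.54 ± 0.32, edgeR adjusted p = 0.0187) and at 10 nM (-3.35 ± 0.35, edgeR adjusted p = 0.000148). For 100 pM, SRGAP3 lost its edgeR call at 18 h without vehicle 1, vehicle 3 or 100 pM 1 and in the fit to that time alone, with an adjusted p of 0.0524 to 0.0982. Among netrin partners, 1 of 7 tested rose and 1 fell at each time at 10 nM, and NEO1, which encodes the netrin receptor neogenin, rose at 18 h (1.61 ± 0.12, edgeR adjusted p = 2.44e-05). ITSN1, an endocytic exchange factor that binds an EphB receptor, rose as well (1.12 ± 0.09, edgeR adjusted p = 4.67e-05). TIAM1, a Rac exchange factor, fell at 100 pM at 6 h (-0.91 ± 0.15, edgeR adjusted p = 0.0123). TIAM1 lost its edgeR call at 6 h without vehicle 3, 100 pM 1 or 100 pM 3, with an adjusted p of 0.0858 to 0.119.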

How the data were processed

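The deposited table held raw counts per gene symbol for 12 libraries of total RNA (Nextera), all of which were used. Per the submitters' processing notes the authors worked with STAR, DESeq2 and hg19; no roles or versions, counter, annotation or strand setting were found in the sources used here. Work on these counts used edgeR 4.0.16 and DESeq2 1.42.0 under R 4.3.3. The filterByExpr function, given the 6 groups, left 13872 of 20114 genes, which were scaled by TMM and tested with edgeR's quasi-likelihood F test (robust) in 1 fit with a coefficient per group and 6 residual degrees of freedom. P-values were adjusted by Benjamini-Hochberg over all genes tested. The members, the lists of effectors and the rules were chosen with earlier results of these data known.

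Total counts were 34204970 to 41373890 per library, and their number limits the precision of low genes. Floors of 3 counts per library cover counting error only, since PCR copies carry no molecular identifiers. Per-library values are given for members called with a log2 fold change of at least 1 in size in a dose comparison and a mean of at least 1 CPM, and fold change, SE and adjusted p for the 8 largest rises and falls per comparison. SEMA4B, SEMA4D and SEMA6C are named because their effect differed between times, and NTN4 and SEMA6C were singled out after their values were seen. Among effectors up to 3 rises and 3 falls with the smallest adjusted p per comparison could be named.

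Same-numbered libraries deviated together from their group means, with a correlation across genes of 0.464 to 0.677 (median 0.558) over 15 pairs of groups, so the numbers were taken to pair the libraries from the data, as the labels do not say what a number shares. The fit with the replicate number as a block has 5 residual degrees of freedom and a biological coefficient of variation of 0.0678, against 0.163 without it. The 2 libraries of a group differed far beyond sampling noise (chi-square of 43.0 to 65.0 per degree of freedom), so none was counted as a copy.

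The scripts were tested on simulated counts. Alternatives were DESeq2, RLE scaling, no filter, the block, a fit to 1 time and leaving out each library. Exon lengths and overlaps came from GENCODE 29 and promoters from RefSeq GRCh38.p14, both matched by symbol. All 67 members matched GENCODE and 57 a promoter.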

Additional observations from a re-analysis of the deposited data

Results flagged for a closer look

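The 10 nM effect differed between 18 h and 6 h by a test of the difference itself for 5 members (edgeR, interaction of dose and time). That was 8.77% of the members tested, below the 10.5% of all genes. The log2 difference, 18 h minus 6 h, was -2.60 ± 0.25, edgeR adjusted p = 0.00187 for ROBO2 and -0.81 ± 0.14, edgeR adjusted p = 0.0110 for ROBO1, both of which were lower in all 4 of the 10 nM libraries than in the vehicle libraries of their time. For SEMA4B, which was higher at 10 nM at both times, it was 0.63. SEMA4D measured 25.6 and 26.3 CPM in vehicle, 25.2 and 24.8 CPM at 100 pM and 36.3 and 36.6 CPM at 10 nM at 18 h, and 25.9 and 28.5 CPM in vehicle, 22.6 and 22.2 CPM at 100 pM and 23.6 and 24.1 CPM at 10 nM at 6 h, a difference in effect of 0.68 ± 0.11, edgeR adjusted p = 0.00859. For SEMA6C, whose 10 nM effect was -0.10 at 18 h and -0.72 at 6 h, the difference was 0.62 ± 0.14, edgeR adjusted p = 0.0295. Of these 5 calls, those of ROBO2 and SEMA4D were kept without each library in turn. Calls of SEMA4B and SEMA6C were lost without most of the libraries compared, and that of ROBO1 without vehicle 3 of 6 h. With the block 23 members were called (40.4%), against 35.1% of all genes.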

How the results depend on the processing

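Counts of members called at 10 nM against vehicle stayed within 1.5 times of 31 (6 h) and 30 (18 h) under every alternative run, at 21 to 32 and 20 to 31 when 1 library was left out, and became 44 at each time with the replicate block. At 100 pM against vehicle the 3 calls at 6 h became 8 with DESeq2, 13 with the block, 0 with the libraries of that time alone and 0 to 4 without 1 library, and the 10 at 18 h became 16 with DESeq2, 26 with the block, 5 with that time alone and 3 to 11 without 1 library. Between the doses 25 calls at 6 h became 40 with the block and 14 to 26 without 1 library, and 19 at 18 h became 33 with the block and 13 to 18. The difference between times was called for 5 members at 10 nM, 8 with DESeq2, 23 with the block and 2 to 6 without 1 library, and for 0 at 100 pM, 2 with DESeq2 and 8 with the block. A group left with 1 library was given the spread of the others. The causes of these shifts were not tested. RLE scaling and no filter changed the side of the threshold for 6 and 7 of the values of single genes, and the split at 100 pM at 6 h, 1 up and 2 down, became 2 up and 2 down with RLE and 2 up and 1 down with no filter. The block reversed no direction and removed no call. Leaving out 1 library reversed 13 values of genes that edgeR had not called: the range over libraries was, at 100 pM at 6 h, -0.00835 to 1.18 for EPHB6 and -0.52 to 0.0228 for PLXNB1, at 10 nM at 6 h -0.118 to 1.36 for EPHA2 and -0.0305 to 1.04 for EPHB6, at 100 pM at 18 h -0.0044 to 0.54 for NTN1 and -1.07 to 0.204 for NTN4, at 10 nM at 18 h -0.45 to 0.0208 for SEMA4A, at 10 nM against 100 pM at 18 h -0.49 to 0.0227 for EFNA5 and -0.47 to 0.014 for SEMA4A, and in the 10 nM difference between times -0.47 to 0.0159 for PLXNB1. The same alternatives were applied to the co-receptors and effectors after their values were seen, and the count at 10 nM against 100 pM at 18 h fell to 19 or 20, against 31, without 100 pM 3, 10 nM 1 or 10 nM 3. Groups of 2 libraries limit all tests, and the 11 tested members under 1 CPM rest on few counts.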

Other observations

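Levels of some members went with the replicate number. Same-numbered libraries deviated together across all genes (correlation of 0.464 to 0.677), and the matching shares over all genes are not given here. Without those shares, the counts below cannot be read as a trait of these families. Of the 46 members that averaged 1 CPM or more, 8 were higher in replicate 3 than in replicate 1 in all 6 groups, EPHB6, SEMA6A and PLXNB1 among them, and 15 were lower in replicate 3 in all 6, with NTN4, EPHA2 and EFNA1 among them, while 23 were mixed. EPHB6 measured 29.4 and 61.6 CPM in vehicle, 45.9 and 86.98 CPM at 100 pM and 48.9 and 71.7 CPM at 10 nM at 6 h, and 27.3 and 55.9 CPM in vehicle, 74.2 and 104 CPM at 100 pM and 51.5 and 72.8 CPM at 10 nM at 18 h. EPHA2 measured 5.52 and 2.07 CPM in vehicle, 6.41 and 2.91 CPM at 100 pM and 7.14 and 3.50 CPM at 10 nM at 6 h, and 5.73 and 3.33 CPM in vehicle, 7.50 and 4.73 CPM at 100 pM and 3.79 and 2.33 CPM at 10 nM at 18 h. What the numbers share is not given in the labels.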
